A study of Homo sapiens with 197 samples.

Results

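B2M, the gene of β2-microglobulin, was read as 1 of the 61 gene rows of a Nanostring panel in which activated kinases were introduced 1 by 1 into IMR90 cells, and its row was followed through all kinase, IMR90, SW39 and reference lanes. The B2M row was taken by its name, and its values took no part in the scaling. IMR90 cells are non-transformed human lung fibroblasts. They received retroviruses that each encoded a single kinase with an added myristoylation signal, which brings the protein to the cell membrane, and total RNA was collected after 4 days. All kinases with a lane were used but HK1, whose lane held 2 B2M counts. Each kinase had 1 well, so a kinase has no replicate of its own. The comparison groups were 2 IMR90 control wells, which the labels call empty vector, 2 samples of SW39, an immortalized line derived from IMR90, and 6 lanes of a human reference RNA. The labels give SW39 the cell line IMR90 and the infection protocol of the other samples, whereas the authors count SW39 among non-infected cells. Cell line and infection could therefore not be told apart between SW39 and the controls. Nothing says that the replicates came from separate cultures, so their spread may be technical. The panel holds no set of fibroblast markers, and the identity of the cells was not checked here.

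β2-microglobulin is the invariant light chain of MHC class I molecules: without it the heavy chains do not reach the cell surface, and peptides are not shown to CD8 T cells. The gene is transcribed in nearly all nucleated cells and is often taken as a housekeeping gene, yet interferons and NF-kB raise it through elements close to its start. TBK1 and IKBKE phosphorylate IRF3 upstream of interferon genes, TYK2 is a Janus kinase of the type I interferon receptor, and MAP3K7, MAP3K8 and MAP3K14 act in canonical or non-canonical NF-kB signalling.

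In the RefSeq annotation of GRCh38.p14, B2M lies on chromosome 15, plus strand, from 44711517 to 44718145. The 250 bases before its start, chr15:44711267-44711516, are shown because letters of such elements stand in them. Capitals mark matches to the letters of an interferon-stimulated response element core, GAAANNGAA, and of a kappa-B core, GGGNNTTTC, each searched on both strands:
B2M promoter: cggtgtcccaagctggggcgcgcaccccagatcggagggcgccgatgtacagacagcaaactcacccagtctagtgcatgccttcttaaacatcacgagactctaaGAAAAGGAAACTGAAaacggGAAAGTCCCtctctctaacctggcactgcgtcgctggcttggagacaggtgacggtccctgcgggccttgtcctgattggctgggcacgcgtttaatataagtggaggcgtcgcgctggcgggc
The first core matched at 2 overlapping places on the plus strand, from 44711373 and from 44711379, and the second once, on the minus strand, from 44711393 to 44711401. The interferon core was present in 6.88% and the kappa-B core in 4.16% of the 35116 promoters of the same length, and both were present in 0.327% of them. The upstream windows of the normalizers PGK1, TBP and TUBB2A held neither. The motifs were chosen after the B2M sequence had been read, and a match is a match of letters only.

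Raw counts were divided by the mean of the 6 spiked positive controls and scaled to the geometric mean of the 3 normalizers (PGK1, TBP and TUBB2A), and the result is called normalized counts. B2M was the row with the highest raw count in 158 kinase lanes, and the row labelled ZBTB33 led the other 27. Its raw count ran from 6820 to 135864 with a median of 40237, its median share of the counts of a lane was 24.2%, and the counting error of its log2 value was 0.02 to 0.06. The lanes held 29629 to 340763 counts in all, and 1 kinase lane (PIP5K2A) had fewer than 50000. The row labelled MyrFlag, after the tag that the kinases carry, stood at 416 to 845 normalized counts in the kinase lanes and at 609 to 694 in the control lanes, which overlap. The row labelled ZBTB33 did separate them: it ran from 142.5 to 109177 normalized counts in the kinase lanes, from 8.50 to 17.8 in the control lanes, and stood at 6.05 and 6.66 in SW39. Its mean was 10.35 log2 higher in the kinase wells than in the control wells (exact permutation test, adjusted over 58 rows p = 0.00341). The MyrFlag row was 2.01 log2 higher in SW39 than in the controls (edgeR quasi-likelihood test, adjusted p = 2.05e-20). The authors reported no expression of the tag in SW39. Whether the row names match their probes was not tested.

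Over the kinase wells, B2M had a median of 38179 normalized counts, its lower and upper quartiles were 33119 and 46694, and the wells ran from 22470 to 92638, a 4.12-fold range. The IMR90 control wells lay inside it, at 33518 and 38358. Of the kinase wells, 90 were above both controls, 52 below both and the remaining 41 between them. The mean of the kinase wells was 0.16 log2 above that of the controls, a difference smaller than the spread of the wells (exact permutation test, two-sided, p = 0.633, Benjamini-Hochberg adjusted over 58 rows 0.799). The test called 3 of the 58 rows, or 5.17%, and B2M was not among them. Each control could also be set against kinase wells of nearby sample numbers, which the labels give. In sample numbers 1 to 12, 6 of 10 kinase wells were above the control and their mean was 0.22 log2 higher. In sample numbers 13 to 24, 1 of 9 was above the control and their mean was 0.11 log2 lower. That control averaged its lane numbered 13 (41158 normalized counts) with a lane that carries the number 1 (35748). The PIK3CG and PTK2 wells of this stretch likewise include lanes numbered 3 and 4. The second comparison was therefore only in part one of nearby numbers.

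The SD of B2M over the kinase wells was 0.45 log2, 4.51 times the 0.10 found over the 6 lanes of reference RNA. Those lanes are repeat runs of RNA, so their SD covers the technical spread of a lane and not that between wells of cells. Scaled by the positive controls alone the wells had 2.79 times the SD of the lanes. Among the 20 gene rows whose median count was above the negative-control level, it was the fourth most variable, after the rows labelled ZBTB38, ZBTB33 and PLCZ1. The normalizers themselves had SDs of 0.12 (PGK1), 0.11 (TBP) and 0.12 (TUBB2A) after scaling by their own mean. Scaled by the positive controls alone, B2M had an SD of 0.56, against 0.28, 0.23 and 0.26 for PGK1, TBP and TUBB2A.

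**Figure D1:**
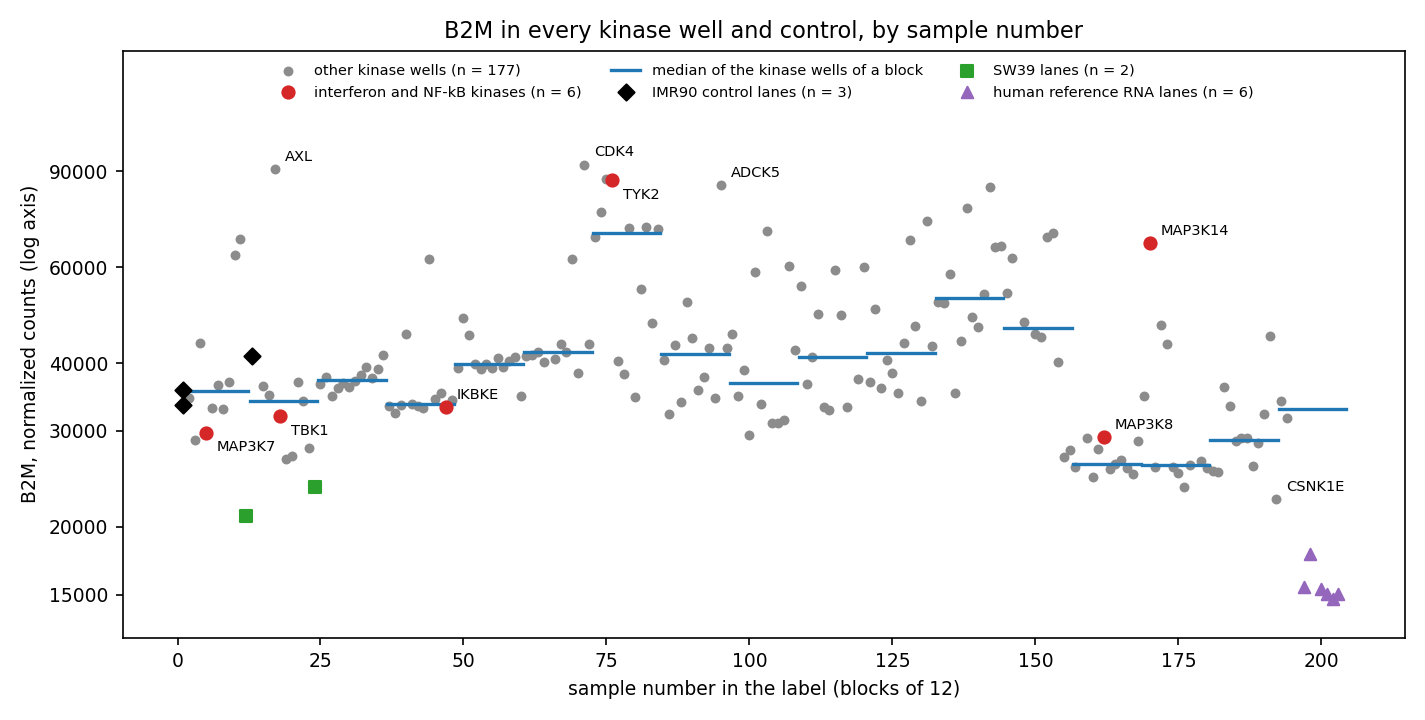
Normalized B2M counts (log axis) against the sample number in the label. Points are the kinase wells, with the 6 interferon and NF-kB kinases in red, blue lines are the median of the kinase wells in each block of 12 sample numbers (17 blocks, counted from the left), and other symbols are lanes of IMR90 controls, SW39 and reference RNA. Block medians run from 25924 to 69445, and single wells such as AXL and MAP3K14 stand far above their neighbours.

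The highest wells held kinases of unlike function. CDK4, the partner of D-type cyclins, was first at 92638 normalized counts, or 2.58 times the control mean. AXL, the receptor tyrosine kinase for GAS6, followed at 90782. PKM2, a pyruvate kinase of glycolysis, stood at 87116 and TYK2 at 86777. CDK4 and AXL were the only wells more than 2.5 SD above the mean of all IMR90 wells, with Z-scores of 2.67 and 2.61, and none was more than 2.5 SD below it. Over all rows and kinase wells, 39 of 10614 pairs (0.367%) had a Z-score above 2.5. The remaining wells of the top 10 were ADCK5 (84824), STK32C (84385), the p38 kinase MAPK12 (77076), the Src-family kinase BLK (75736), MAST1 (73093) and PCTK3, now known as CDK18 (71077).

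The lowest wells were close to one another. CSNK1E, a casein kinase of the circadian clock, had the lowest value at 22470 normalized counts, 0.63 of the control mean, with a Z-score of -1.84. NME7 followed at 23717, and the next wells from below were RPSK6A3 (24686), STK32B (25019), the MOB protein MOBKL1A (25147) and the polo-like kinase PLK3 (25196). RIOK1, which acts in ribosome maturation, glycerol kinase GK, the mitochondrial creatine kinase CKMT2 and the mitotic kinase PBK lay between 25323 and 25698. Steps between neighbours in this order were smaller than the spread of the reference lanes, so neighbours in this order did not differ beyond it. The place of NME7 rested on the normalizers: scaled by the positive controls alone it was 0.13 log2 above the median well and ranked 72 from the highest, and the lowest well was the calcium/calmodulin-dependent kinase CAMK2B.

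B2M differed between stretches of sample numbers. Along the numbers as a whole no trend passed an adjusted p of 0.05 (r = -0.152, rho = -0.161, permutation p adjusted over 7 measures 0.0903 and 0.0502). The labels give each sample a number and do not say what it stands for. The numbers were cut into 17 blocks of 12 consecutive numbers, block 1 being numbers 1 to 12. Block medians ran from 25924 normalized counts in block 15 to 69445 in block 7 (numbers 73 to 84), a 2.68-fold range. Of the variance of log2 B2M, 42.2% lay between blocks. This share was not particular to B2M. Among the 20 gene rows above the negative-control level it ran from 18.3% (ADAM12) to 67.1% (UHRF1), with 40.2% for PGK1 and 56.3% for TUBB2A. All of the 10 lowest wells stood in blocks 14 to 16, which hold 34 wells. Block 7 supplied 6 of the 12 highest. Several blocks were tight: in block 3 the 12 wells ran from 34822 to 41363, and in block 14 the 11 wells ran from 24686 to 29236. Other blocks held 1 well far above the rest. In block 2 AXL was at 90782 and the next well at 36890. In block 8 ADCK5 was at 84824 and the next at 51873. In block 6 CDK4 was at 92638 and the tyrosine kinase RET was next at 62050. Whether the numbers mark handling steps cannot be told apart here from the choice of kinases in each block.

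Each well was therefore also set against the median of its block. Of all kinase wells, 61.2% were within 0.2 log2 of it, 22 (12%) were above it by more than 0.5 log2 (1.41-fold) and 7 (3.83%) were below it by more; both distances were set with these values in view. AXL was first, 2.66-fold above its block, and MAP3K14 second, 2.56-fold above. CDK4 was 2.21-fold and ADCK5 2.04-fold above theirs. The next were PDPK1, the kinase that phosphorylates AKT, at 1.90-fold, phosphomevalonate kinase PMVK at 1.90-fold and the CSK-related kinase MATK at 1.85-fold. Against their blocks 4 wells had a Z-score above 2.5, namely AXL (3.75), MAP3K14 (3.60), CDK4 (3.01) and ADCK5 (2.69). On the low side AURKA (-2.94) and PRKRA (-2.56), the protein activator of PKR, passed -2.5. Both belong to block 7, where most wells were high, and at 34664 and 38179 normalized counts they were near the controls. PKM2, BLK and PCTK3, from the same block, were only 1.25-fold, 1.09-fold and 1.02-fold above its median.

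**Figure D2:**
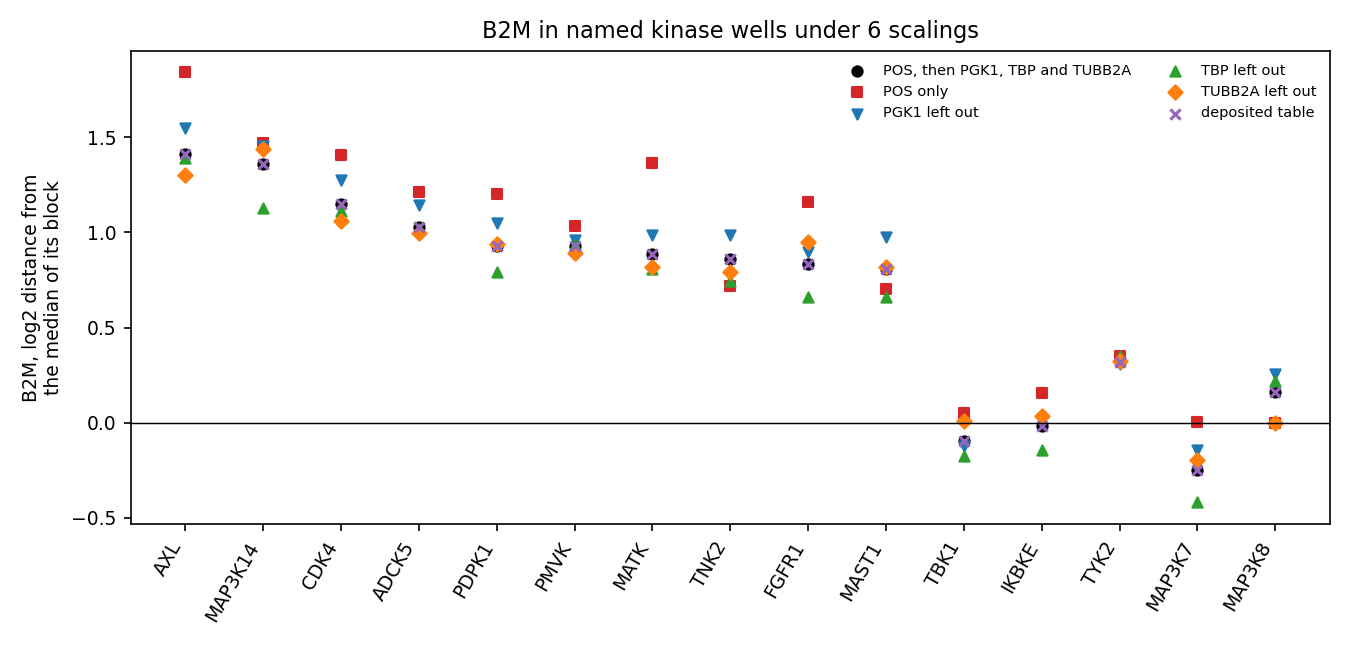
Distance of B2M from the median of its block (log2) in the 10 wells farthest above their block and in the interferon and NF-kB wells, under 6 scalings. For these wells the deposited table repeats the values of the scaling used in the text. AXL, MAP3K14 and CDK4 stay more than 1 log2 unit above their block under each, and TBK1, IKBKE, MAP3K7 and MAP3K8 lie between -0.42 and 0.26.

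The 6 interferon and NF-kB kinases fell into 2 high wells and 4 ordinary ones. TYK2 had 86777 normalized counts of B2M and ranked 4 from the highest. MAP3K14, the kinase NIK of the non-canonical NF-kB pathway, had 66456 and ranked 19. Counted from the lowest well, IKBKE with 33182 ranked 48, TBK1 with 31905 ranked 39, MAP3K7, also called TAK1, with 29797 ranked 34 and MAP3K8, also called TPL2, with 29236 ranked 32. These 4 were below both IMR90 control wells, and TYK2 and MAP3K14 were above both. IKBKE and TBK1, at 15.02 and 14.96 log2, were nearer to the lower control (15.03) than the 0.10 log2 SD of the reference lanes. The mean of the 6 was 0.06 log2 above that of the other kinase wells, which the spread between wells exceeded (exact permutation test, two-sided, p = 0.747, adjusted over 58 rows 0.832). Without TYK2 the difference was -0.15 log2 (exact permutation p = 0.472) and without MAP3K14 it was -0.07 (p = 0.733), so its sign rests on either well, and it also turned with TBP left out of the normalizers (-0.032) and without block 7 (-0.11). The same test called 3 of 58 rows, 5.17%.

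TYK2 and MAP3K14 differed in how they stood among their neighbours. TYK2 was 1.25-fold above the median of its block, where it was second to PKM2 and where BLK, PCTK3, MAPK13, MAP3K6 and LIMK1 also had 68300 normalized counts or more. MAP3K14 was the highest of 11 wells in a block with a median of 25924, and the next well there, the tyrosine kinase TNK2, had 46979. Over the 13 settings of scaling and lane handling MAP3K14 stayed 1.13 to 1.47 log2 above its block. By that distance it ranked first or second of all kinase wells. Only the settings that changed the normalizers moved its distance. It was 1.36 in all the others, which could hardly change it. TYK2 stayed 0.31 to 0.35 above its block. MAP3K8 had the highest B2M of its block of 11 wells but was only 1.12-fold above the median, and MAP3K7 was 0.84 of its block median. With all values taken against the blocks, the 6 wells were 0.19 log2 above the others (exact permutation test, p = 0.189).

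The single normalizers placed these wells differently. From the highest well, MAP3K14 ranked 9 for B2M per count of PGK1 and 4 per count of TBP, but 42 per count of TUBB2A. Scaled by the positive controls alone it ranked 3. TYK2 ranked 3, 6 and 3 per count of PGK1, TBP and TUBB2A and 5 by the positive controls. AXL ranked 1, 3 and 4 and first by the positive controls, and CDK4 2, 2 and 1 but 7 by the positive controls. CSNK1E was last per count of PGK1 and of TUBB2A and next to last per count of TBP.

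The kinases were grouped by function and class into 12 families to ask whether B2M moved with a family. As normalized, none of the 12 passed a Benjamini-Hochberg adjusted p of 0.05 by the exact permutation test, and 1 had an unadjusted p under it. The mitotic and checkpoint kinases came nearest: the 12 wells ran from 25196 (PLK3) to 38834 (NEK11), and their mean was 0.37 log2 below that of the other wells (exact permutation test, p = 0.0067, adjusted over 12 families 0.0804). An exact rank-sum test called this family alone, with an adjusted p of 0.0278. The tyrosine kinases ranged from 26114 (YES1) to 90782 (AXL), and their mean was 0.16 log2 higher (exact permutation p = 0.157, adjusted 0.526). The AGC kinases ran from RPSK6A3 (24686) to STK32C (84385), the metabolic kinases from NME7 (23717) to PKM2 (87116), and the MAPK cascade from MAP2K6 (29077) to MAPK12 (77076). The CDK and CKS wells ran from PCTK2 (26822) to CDK4 (92638). The lipid and inositol kinases ran from PIP5K1B (26520) to ITPK1 (65666) and the calcium/calmodulin and AMPK-related kinases from CAMK2B (26643) to SNF1LK (68318). The casein, CLK, DYRK, HIPK and SRPK kinases were narrower, from CSNK1E (22470) to DYRK4 (51500). The STE20 and MOB wells ran from MOBKL1A (25147) to MOBKL2A (67375), and the group of TGF-beta receptors, LIMK, TESK and ILK from ILK (33075) to LIMK1 (68300).

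Against the block medians, the tyrosine kinases stood apart. Their mean was 0.35 log2 above that of the other wells (exact permutation test, two-sided, p = 0.000226, adjusted over 12 families 0.00272), and no other family passed. The tests against the blocks exchanged wells across all blocks, although the SD within a block ran from 0.07 (block 3) to 0.54 log2 (block 2). Their p-values take wells of all blocks as exchangeable, which these SDs do not bear out. Of the 17, 7 (41.2%) were more than 0.5 log2 above their block, namely AXL, MATK, TNK2, FGFR1, NTRK3, SYK and RET, against 15 of the other wells (9.04%) and 12% of all wells. AXL, FGFR1, NTRK3 and RET are receptors, whereas MATK, TNK2 and SYK are cytoplasmic. The other 10 lay between -0.04 (FRK) and 0.16 (BTK) log2 from their block median, among them the Src-family kinases LCK, FGR, YES1 and BLK. TYK2, a tyrosine kinase as well, was counted with the interferon kinases. The difference ran from 0.29 to 0.49 log2 over 29 alternatives, which changed the scaling or left out each of the 17 wells in turn. The highest adjusted p of the permutation test was 0.0231, without AXL. Some of the scalings could hardly change the values. TNK2 and NTRK3 share a block with MAP3K14 and have neighbouring sample numbers, and FGFR1 and PDPK1 are neighbours too. The mitotic and checkpoint wells held none of the 22 high wells, and their mean was 0.26 log2 lower (exact permutation p = 0.0176, adjusted 0.105). The AGC kinases had 6 high wells of 24 (25%): PDPK1, MAST1, GRK6, STK32C, PRKCD and PRKCI.

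**Figure D3:**
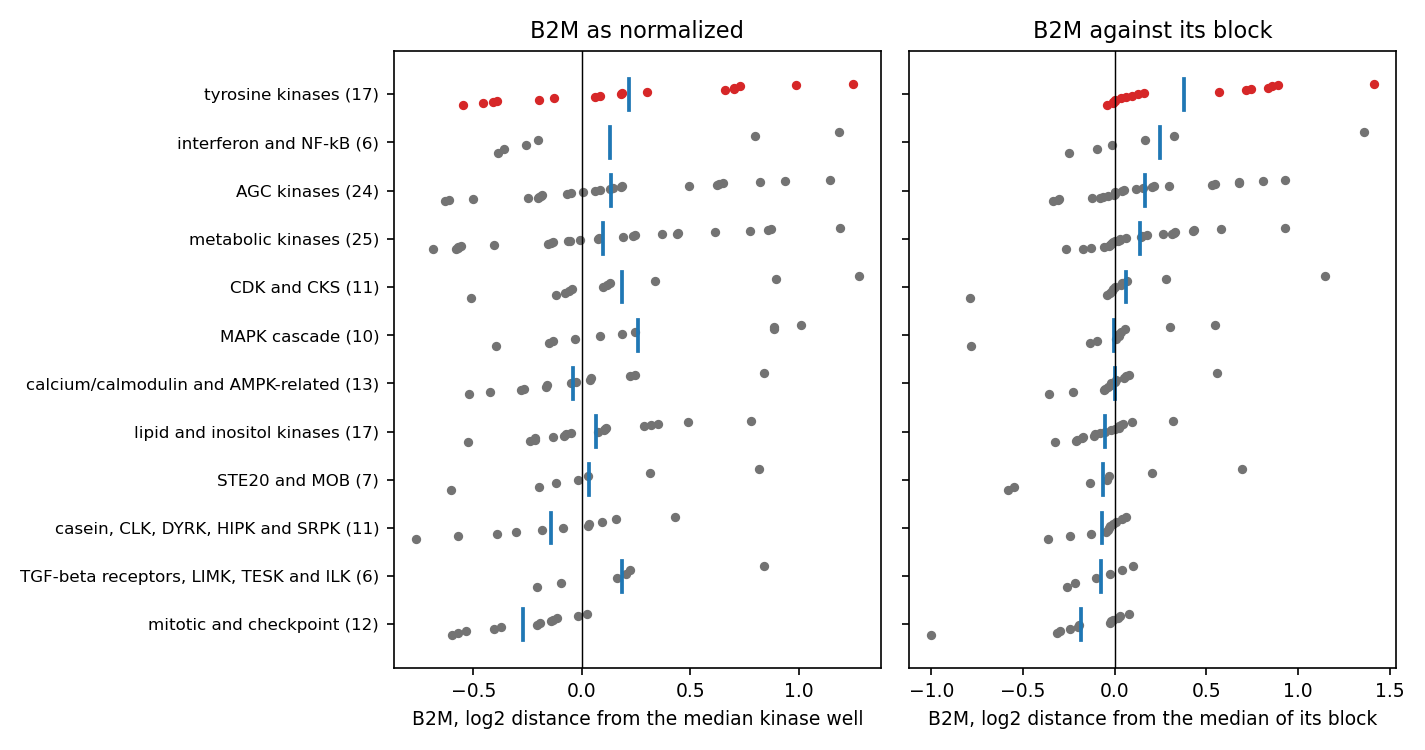
B2M in the kinase wells of 12 families, as the log2 distance from the median of all kinase wells (left) and from the median of the well's own block (right). Each point is a well, the blue bar is the family mean and the number of wells is in parentheses. The tyrosine kinases (red) have 7 of 17 wells more than 0.5 above their block, and the mitotic and checkpoint wells have none.

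Scaled to the 3 normalizers, B2M was lower in SW39 than in the IMR90 controls, and both the direction and the size of the difference rested on those normalizers. The SW39 samples had 20961 and 23660 normalized counts, and the control lanes had 33518 in the first well and 35748 and 41158 in the second. No control lane was as low as SW39. edgeR gave a log2 change of -0.69 (SE 0.18, quasi-likelihood adjusted p = 0.00158, n = 2 against 2), and of the 58 rows 6 (10.3%) were called lower. Per count of PGK1, SW39 held 1.72 and 1.99 counts of B2M against 3.41 to 4.31 in the control lanes. Per count of TBP it held 33.5 and 35.3 against 79.9 to 95.8. Per count of TUBB2A it held 9.51 and 11.3 against 8.25 to 10.1, and the groups overlapped. With the positive controls as the only scaling the change was 0.055 (adjusted p = 0.893), and without TBP in the offset it was -0.38 (adjusted p = 0.214). The call was also lost when any of the 4 samples was left out, with adjusted p from 0.127 to 0.508, without the second IMR90 lane (adjusted p = 0.0669) and after filterByExpr, edgeR's filter on low counts (adjusted p = 0.0522).

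The reference RNA, which the authors describe as a mixture from human cancer cell lines of several tissues, had the lowest B2M. Its 6 lanes ran from 14704 to 17846 normalized counts, below every kinase well, and their geometric mean of 15550 was 0.43 of the control mean of 35856. Per count of PGK1 the lanes held 0.75 to 0.92 counts of B2M and per count of TBP 23.7 to 32.5, less than every IMR90 lane. Per count of TUBB2A they held 8.95 to 11.4, which overlapped the controls. Scaled by the positive controls alone the reference RNA was 0.14 log2 below the controls in place of 1.21. No test was made, since the lanes are repeated runs of RNA rather than samples of cells.

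**Figure D4:**
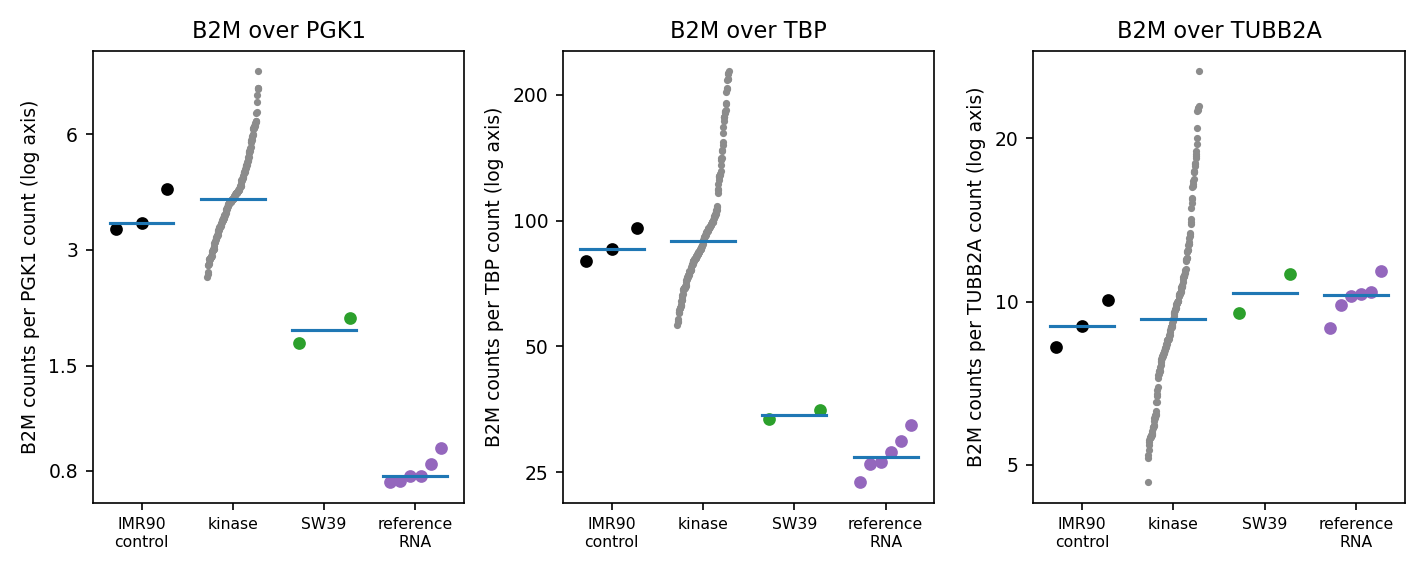
B2M counts per count of each normalizer (log axes) in IMR90 control lanes (n = 3), kinase lanes, SW39 (n = 2) and reference RNA (n = 6); points are lanes and blue bars are medians. SW39 and the reference RNA lie below the controls per count of PGK1 and TBP and overlap them per count of TUBB2A.

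Across the kinase wells and before any centring, B2M was most like PGK1, which encodes the glycolytic enzyme phosphoglycerate kinase, and most unlike TUBB2A, a β-tubulin. Among the rows above the negative-control level, with 68 relations tested over all rows, Spearman's rho with PGK1 was 0.635 and Pearson's r 0.738 (permutation p = 1e-05 each, the smallest that 100000 resamples can give, adjusted 6.8e-05 and 4.25e-05). Without the 2 wells farthest from the median r was 0.723. The second row was PLCZ1, with a rho of 0.543 and an r of 0.603, but its median count was 26, near the negative-control level of 20.6. Rows not above that level included some with nearly the same rho, namely DDX53 (0.530), RNF17 (0.502) and SPATA22 (0.496). Others of them ran down to -0.129 (NEG_A), and PLCZ1 was thus not set apart from rows near background. The third among the rows above the level was the row labelled ZBTB38 (rho = 0.212, r = 0.141), whose Pearson permutation p of 0.0557 was adjusted to 0.118. At the other end were TUBB2A (rho = -0.696, r = -0.624), Tet1 (rho = -0.330, r = -0.492) and ATAD2 (rho = -0.328, r = -0.437). For PLCZ1, TUBB2A, Tet1 and ATAD2 the adjusted permutation p was at most 0.000105. Without the 2 farthest wells r was 0.574 for PLCZ1, 0.140 for ZBTB38, -0.685 for TUBB2A, -0.459 for Tet1 and -0.394 for ATAD2. PGK1 and TUBB2A are both part of the divisor of B2M, and all rows of a well share that divisor. Scaled by the positive controls alone, r with PGK1 was 0.801 and with TUBB2A 0.338, with PLCZ1 0.735, with Tet1 -0.084 and with ATAD2 0.033. On that scale the wells also share the amount of RNA in the lane. The relation to PGK1 and PLCZ1 was thus positive on both scales, and that to TUBB2A and ATAD2 changed sign. With the normalized values centred on the blocks the order changed. PLCZ1 then had a rho of 0.621 and an r of 0.655 and PGK1 a rho of 0.551 and an r of 0.683, so they led by one measure each. At the other end Tet1 (rho = -0.579, r = -0.624) passed TUBB2A (rho = -0.515, r = -0.429), and by r the rows PPM1D, Tet2, UHRF1, ATAD2 and KCNA1 stood below TUBB2A too.

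The relation of the normalizers to each other was followed directly. Normalized B2M rose with the ratio of PGK1 to TUBB2A over the wells (r = 0.774, rho = 0.742, permutation p = 1e-05 each, adjusted over 7 measures 7e-05 and 3.5e-05, r = 0.783 without the 2 farthest wells). Within blocks, after centring, r was 0.668. MAP3K14 did not follow the other wells: of the 33 wells with a log2 ratio under 1 it had 66456 normalized counts of B2M, and the next highest, UCK2, had 36745. Normalized B2M was also related to the total count of the lane (r = 0.312, rho = 0.338, adjusted permutation p = 0.00014 and 3.5e-05, r = 0.347 without the 2 farthest wells), of which B2M is a large part. It was not detectably related to the mean of the positive controls (r = -0.08, rho = -0.05, adjusted p = 0.365 and 0.488) or of the negative controls (r = 0.06, rho = 0.12, adjusted p = 0.446 and 0.122).

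**Figure D5:**
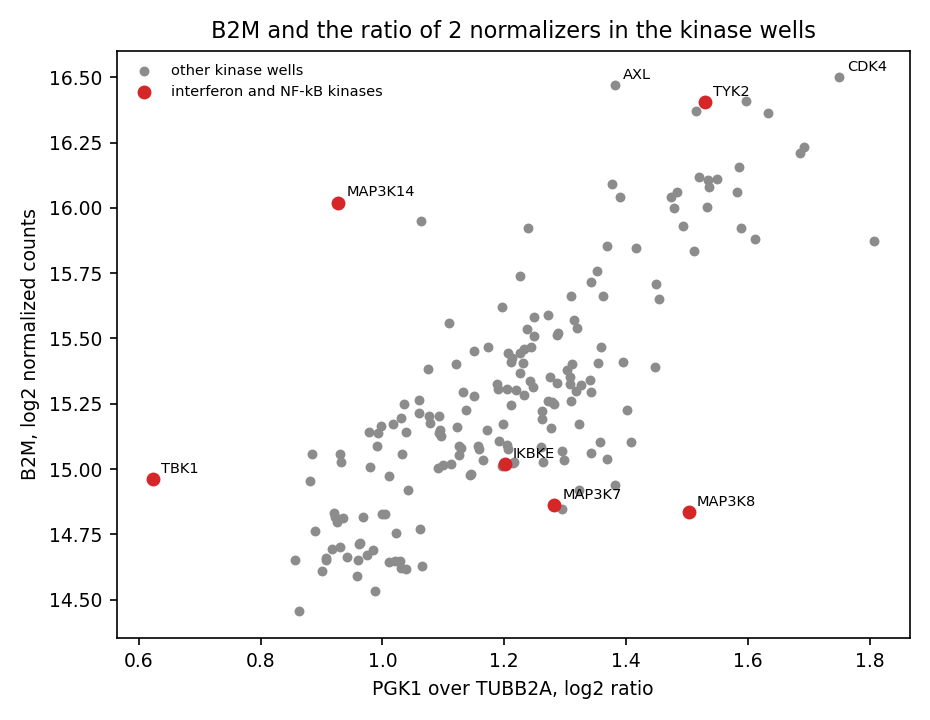
Normalized B2M (log2) against the log2 ratio of PGK1 to TUBB2A in the kinase wells, with the interferon and NF-kB kinases in red. B2M rises with the ratio (r = 0.774), and MAP3K14, at a ratio of 0.93, lies far above the wells with a like ratio.

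Second lanes gave a view of how well a B2M value repeats. IMR90, PIK3CG and PTK2 each had a second lane that carries the sample number of another sample. The PTK2 lanes had 26846 and 45477 normalized counts, a difference of 0.76 log2, whereas the second lane differed by 0.06 from the AKT1 lane whose number it carries. For PIK3CG the difference was 0.35 to its namesake and 0.16 to the PLK1 lane of the same number, and for IMR90 it was 0.20 and 0.09. In all 3 cases B2M was nearer to the lane of the same number. The total counts of the second lanes were also nearer to that lane. PTK2 had 222257, against 214605 in AKT1 and 173840 in its namesake. PIK3CG had 179967, against 179865 in PLK1 and 222490 in its namesake. IMR90 had 132257, against 142255 and 152599. Lanes of one name were averaged here, and which of the labels is right was not settled. If the numbers are right, the PIK3CG and PTK2 wells each average lanes of different kinases.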

How the data were processed

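Raw Nanostring counts of 75 probes in 197 lanes were deposited by the authors without normalization, together with a table whose signal, as deposited, is the count times 1 factor per lane except in 8 unscaled lanes. The authors' methods name the positive controls, PGK1, TBP and TUBB2A for scaling. Counts were scaled in the same way here, log2 was taken with a pseudocount of 1, and lanes of one name were averaged into a well. Wells were compared by exact permutation tests, two-sided, on log2 values rounded to 0.001, in Python 3.11.15 (scipy 1.17.1). SW39 was compared with edgeR 4.0.16 on the counts with the housekeeping scaling as offset. DESeq2 1.42.0 and limma 3.58.1 were alternatives. The tests recovered changes in simulated data. Those data had no blocks, and the changes put in were larger than the group differences tested for B2M. Their recovery therefore does not show how the tests perform on differences of that size or with blocks. P-values were adjusted by Benjamini-Hochberg over 58 rows (57 endogenous and B2M) or over 12 families. Named wells were the 10 highest, the 10 lowest, the 6 interferon and NF-kB kinases and each family's extremes, and named rows the 3 most and 3 least like B2M; wells far from their block were added after their values were seen. The gene, kinase lists and tests were chosen with earlier results of these data known. Lanes limit precision by counting error only in part, as each kinase has 1 well. Replicate numbers shared by the IMR90 and SW39 labels were not used to pair the samples in the main fit.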

Additional observations from a re-analysis of the deposited data

Results flagged for a closer look

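Among the 6 lanes of reference RNA, the second stood apart from the others: it had 17846 normalized counts of B2M, and the other 5 ran from 14704 to 15498. The rule behind this remark marks about 1 of 20 groups by chance.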

How the results depend on the processing

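The difference between kinase wells and controls kept its direction under all 15 alternatives and was not called under any of them. Some alternatives, here and below, could hardly change a value of B2M. Leaving out the positive controls has no effect once the normalizers are used, and the pseudocounts are small beside the counts. Of 350 distances of named wells from the median well under the alternatives, 88 moved by more than the SD of the reference lanes and 3 changed sign: NME7 went from -0.69 to 0.13 with positive controls only, and MAP3K8 from -0.39 to 0.16 against the blocks and 0.14 against the 13 nearest wells. The mean of the interferon and NF-kB wells fell below the others without TBP among the normalizers (-0.032) and without block 7, sample numbers 73 to 84 (-0.11, an alternative chosen after seeing the data), and ran from -0.15 to 0.17 with each well left out; it was called in no case. The count of wells beyond 2.5 SD was 2, and 4 with positive controls only, 4 without TUBB2A, 1 in the deposited table, 6 against the blocks and 5 against the 13 nearest wells, also added after seeing the data. The SD over kinase wells was 0.56 with positive controls only and 0.35 against the 13 nearest wells. The count of families called was 0, and 1 with the blocks, with the 13 nearest wells and with the rank-sum test. The reference RNA differed from the controls by -0.14 (positive controls only), -0.71 (without PGK1), -0.996 (without TBP), -1.91 (without TUBB2A) and -0.42 (deposited table, where its lanes are unscaled). For SW39 the change was 0.055 with positive controls only, -0.38 without TBP, -0.69 after filterByExpr (adjusted p = 0.0522 over 35 rows) and -0.74 without the second IMR90 lane (adjusted p = 0.0669), and -0.79 to -0.59 with 1 sample left out. IMR90 and SW39 samples of one replicate number share that number and a block of sample numbers (1 and 12, 13 and 24). The second IMR90 lane, numbered 1, lies outside the block of its well. The r of the deviations of same-numbered samples was 0.06. With the replicate number as a block the paired value was -0.69 (edgeR adjusted p = 1.16e-18). The labels do not say that these samples were handled as pairs. That fit leaves little to estimate their spread, so its p-value is no measure of replication. edgeR called 8 rows higher and 6 lower in SW39, against 27 and 1 with positive controls only, 6 and 11 without TUBB2A, and 0 to 6 higher and 0 to 2 lower with 1 sample left out, 6 and 2 without the second lane, and 7 and 3 with it summed by number. With a lone sample in a group, that sample was assumed to vary like the other group. Where a call changed, the cause was not tested. B2M counts were high in every lane analysed, and each kinase had 1 well.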
